A study of Mus musculus with 39 samples.

Results

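Transcripts of 10 genes of iron handling were described in mouse liver: the secreted siderophore binder lipocalin 2 (Lcn2), the hepcidin genes Hamp and Hamp2, ceruloplasmin (Cp), transferrin (Trf), the transferrin receptors Tfrc and Tfr2, the iron exporter ferroportin (Slc40a1), and the ferritin subunits Fth1 and Ftl1. They were chosen by name, through the RefSeq accession of the probe, and each had 1 RefSeq probe, so that 10 of the 17016 genes tested are described here. Livers came from 39 male C57BL/6J mice (spelled C57BL6/J in the labels), 5 to 6 weeks old when purchased and singly housed throughout. Aggressor-exposed (AggE) mice were placed in a small cage inside the home cage of a trained aggressor for 6 hrs daily without food, with brief physical attacks, on 5 or 10 days. Control (Ctrl) mice went through the same caging and food deprivation with no aggressor, so both arms share fasting sessions. Mice were also placed across a partition from an aggressor 1 h before collection, and the methods do not say separately whether Ctrl mice were. Collection was at 24 hrs after 5 days (4 Ctrl and 5 AggE mice), at 24 hrs after 10 days (4 and 5), at 1.5 wks after 5 days (4 and 5) and at 4 wks after 10 days (6 and 6). Some labels give other regimens (1 day for the 24 hr AggE mice of the 5-day regimen, and titles with 10 for the AggE mice and 1 Ctrl mouse at 1.5 wks), and the groups follow the label of the liver source.

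Iron circulates bound to transferrin, enters cells through transferrin receptors, is stored in ferritin and leaves cells through ferroportin, while ceruloplasmin oxidises it for loading onto transferrin. Hepcidin, a hormone made by hepatocytes, lowers plasma iron by removing ferroportin from the cell surface. BMP signals report iron stores to the hepcidin gene and IL-6 acts on it through STAT3. Lipocalin 2 is an acute phase protein that binds bacterial siderophores and so withholds iron from bacteria. In bulk liver, a change in the cells present and a change in RNA per cell cannot be told apart.

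The promoters of lipocalin 2 and of the paired hepcidin genes are shown because Lcn2 had the largest change at 24 hrs and because the hepcidin genes are near copies of each other. The values of Hamp and Hamp2 were not tested against each other. Each line gives the 250 bases before the RefSeq start site, read 5′ to 3′ on the minus strand of GRCm38.p6, at chr2:32387740-32387989 for Lcn2, chr7:30944030-30944279 for Hamp and chr7:30924182-30924431 for Hamp2. Capitals mark matches to motifs searched on both strands: TTGCNNAA (C/EBP), TTCNNNGAA (STAT), GGCGCC (BMP response element) and an NF-kappaB pattern of 3 G, 2 free bases, 3 T and 2 C.
Lcn2: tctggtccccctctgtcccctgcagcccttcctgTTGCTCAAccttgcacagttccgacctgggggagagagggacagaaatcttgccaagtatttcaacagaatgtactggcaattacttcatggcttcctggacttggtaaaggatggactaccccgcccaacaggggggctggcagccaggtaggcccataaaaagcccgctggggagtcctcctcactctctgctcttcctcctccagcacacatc
Hamp: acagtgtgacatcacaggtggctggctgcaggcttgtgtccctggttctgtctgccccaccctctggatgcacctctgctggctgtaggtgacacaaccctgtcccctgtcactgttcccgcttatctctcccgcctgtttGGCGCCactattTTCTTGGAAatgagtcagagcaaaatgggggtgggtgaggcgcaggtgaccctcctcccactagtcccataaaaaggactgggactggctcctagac
Hamp2: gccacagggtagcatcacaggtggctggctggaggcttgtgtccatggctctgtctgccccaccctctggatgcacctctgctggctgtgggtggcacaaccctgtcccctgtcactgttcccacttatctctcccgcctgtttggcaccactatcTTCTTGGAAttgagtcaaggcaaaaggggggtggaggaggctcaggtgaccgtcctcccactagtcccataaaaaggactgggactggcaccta
Lcn2 held TTGCTCAA at -216 to -209, a C/EBP match that 9.56% of 32851 mouse promoters of this length also hold, and no match to the NF-kappaB pattern in this window (1.41% of promoters). Hamp held the BMP element at -109 to -104 (9.59% of promoters) and the STAT match TTCTTGGAA at -97 to -89 (7.02%). Hamp2 held the same STAT letters at -94 to -86, but at the place of the BMP element it read GGCACC, which is G4A counted from the 5′ end of the Hamp hexamer. The paired promoters were identical at 227 of 247 aligned bases (91.9%). A match describes letters, and no binding was measured.

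Values are log2 ratios of Cy-5 (liver RNA) over Cy-3 (a pooled mouse reference RNA), with 1 dual dye array per mouse. A ratio compares mice for 1 gene and gives no level between genes. The share of probes well above background in Cy-5, by the scanner software's own mark, ran from 14.8% to 70.1% over the 39 arrays, and was lower at 24 hrs post-5-day and at 1.5 wks (group medians 21.9% to 29.4%) than at 4 wks (51.2% and 52.8%). It also differed between the arms at 24 hrs post-5-day, with 24.9% to 30.5% in Ctrl (median 29.4%) and 15.3% to 27.8% in AggE arrays (median 22.2%). Precision is limited by the number of arrays. The arrays lay on 11 slides, and no slide of either 24 hr point held both arms, so slide and exposure cannot be told apart there. The label of the tissue was borne out by its markers, since 7 of 7 hepatocyte markers on the array (such as Alb and Apoa1) were well above background on every array. A gene is called here when its Benjamini-Hochberg adjusted p, over 25903 probes in a limma fit of all 8 groups, was 0.05 or less.

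Of the 10 genes, 2 were called at 24 hrs post-5-day, both higher in AggE livers (Lcn2 and Cp), 1 at 24 hrs post-10-day (Lcn2, higher), 0 at 1.5 wks, and 1 at 4 wks (Slc40a1, lower). Among all genes tested, 3.1% were called at 24 hrs post-5-day, 0.094% at 24 hrs post-10-day, 0% at 1.5 wks and 4.18% at 4 wks. The median log2 change of the 10 genes was 0.44, 0.11, 0.14 and -0.19 in that order, against medians of -0.0004, -0.0013, -0.0033 and 0.0071 over all genes. At 1.5 wks limma also gave 0 of the 10 genes an unadjusted p of 0.05 or less, where 2.49% of all genes had one.

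**Figure D1:**
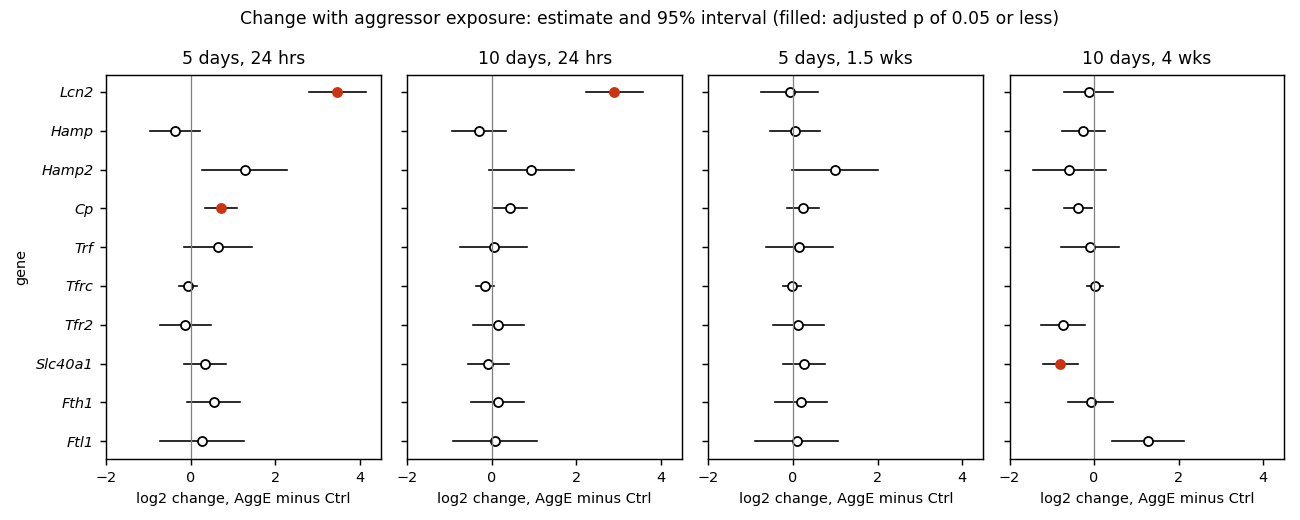
Change in log2 ratio (AggE minus Ctrl) of the 10 genes in each of the 4 comparisons, with the limma estimate as a point and its 95% interval as a line; filled points have an adjusted p of 0.05 or less. Lcn2 stands near 3 at both 24 hr points and near 0 at 1.5 and 4 wks, where it was at background on most arrays, while Hamp2 and Cp lie above 0 at 24 hrs and Slc40a1 and Tfr2 below 0 at 4 wks.

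Lipocalin 2 rose the most of the 10 genes. At 24 hrs post-5-day its log2 ratios in AggE mice were 3.73, 3.32, 1.94, 4.75 and 2.26, and in Ctrl mice -0.22, -0.23, -0.25 and -0.38. At 24 hrs post-10-day they were 3.78, 1.76, 2.45, 2.84 and 1.95 in AggE mice and -0.39, -0.31, -0.35 and -0.33 in Ctrl mice. Every exposed mouse at 24 hrs lay far above every Ctrl mouse, and the Ctrl mice were tightly grouped while the exposed mice spread over more than 2 units. On the unprocessed scale the Lcn2 spot read 76 to 469 in Cy-5 in the AggE mice post-5-day and 83 to 322 post-10-day, against 17.5 to 23 in the Ctrl mice of both, where the local background read 15 to 18. Lcn2 was well above background on 5 of 5 and 5 of 5 AggE arrays and on 0 of 4 and 0 of 4 Ctrl arrays, so the Ctrl readings are only upper limits of the Ctrl level.

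With the Ctrl spots taken at their own readings as upper limits, the normalized Cy-5 signal of Lcn2 (after loess and Aquantile) was at least 6.28-fold higher in AggE livers post-5-day and at least 5.28-fold higher post-10-day. The log2 means were 9.63 against 6.98 and 9.39 against 6.99. These limits hold for this normalization alone, since the Cy-5 signal without the reference channel gave smaller changes. All livers carried Cy-5, and no dyes were swapped. The fitted log2 change of the ratio, which sets exposed mice against readings at background and is no bound, was 3.47 (SE 0.33, 95% interval 2.80 to 4.14, adjusted p = 4.97e-08) post-5-day and 2.90 (SE 0.33, 2.23 to 3.57, adjusted p = 2.75e-06) post-10-day. Lcn2 was called in both comparisons under each of the 13 other settings run and without any 1 mouse, but the size depended on the setting, from 2.38 (Cy-5 alone) to 6.94 (deposited log ratios) after 5 days and between 1.86 and 6.42 after 10 days. With the slide as a random block the change was 3.27 (adjusted p = 0.0024) and 2.80 (adjusted p = 0.0419). The change post-5-day minus that post-10-day was 0.57 (SE 0.47, 95% interval -0.38 to 1.52, adjusted p = 0.936). For this difference 0.0353% of all genes were called and 6.25% had an unadjusted p of 0.05 or less, against 0 and 0 of the 10 genes.

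At 1.5 wks the Lcn2 log2 ratio was -0.18, -0.26, -0.13, -0.12 and -0.20 in AggE mice and 0.10, -0.07, -0.15 and -0.28 in Ctrl mice. At 4 wks the lowest, median and highest ratios were -0.90, -0.59 and -0.43 in AggE mice and -0.81, -0.46 and -0.30 in Ctrl mice. The groups overlapped at both later points, and Lcn2 was well above background on at most 1 array of any of these 4 groups. No fold is given there. Limma did not call Lcn2 at either point (adjusted p = 1 and 0.868).

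The change at 24 hrs exceeded the later change by 3.55 (SE 0.47, adjusted p = 0.000117) after 5 days and by 3.02 (SE 0.44, adjusted p = 0.000519) after 10 days. The sizes rest on Ctrl and later values at background, and over the other settings ran from 2.50 to 7.17 and from 1.86 to 6.36. Of the 10 genes, 1 (Lcn2) was called in each difference, where 0.094% and 0.0764% of all genes were. Both calls were lost with no normalization between arrays (2.85, adjusted p = 0.0566, and 2.44, adjusted p = 0.0768) or a random slide block (adjusted p = 0.0986 and 0.337). One slide held an AggE mouse of the 24 hr post-5-day group, with an Lcn2 ratio of 2.26, beside 3 AggE mice of the 1.5 wk group, with -0.18 to -0.12.

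Neutrophil granules also carry lipocalin 2, and most neutrophil markers stayed at background. Of 10 neutrophil markers, 9 were well above background on no Ctrl array of either 24 hr group, and of the AggE arrays 8 post-5-day and 9 post-10-day (S100a8, Camp, Ngp, Mpo and Elane among them) were on none. S100a9 was the only marker of the 10 well above background on all arrays of some group. By limma it changed by 0.58 (SE 0.36, adjusted p = 0.441) post-5-day and 0.45 (SE 0.36, unadjusted p = 0.216) post-10-day. S100a9 was named after its values were seen. The summed normalized Cy-5 signal of the 10 markers was 1036 to 1101 in Ctrl and 1050 to 1344 in AggE mice post-5-day, and 996.5 to 1088 and 1007 to 1115 post-10-day. By limma 0 of the 10 were called at either point, and their median change was 0.09 and 0.07. Before adjustment 1 was higher and 1 lower post-5-day and 0 passed post-10-day, where 16.8% and 2.87% of all genes passed. Of 9 Kupffer cell and macrophage markers on the array, limma called 0. Unadjusted, 1 was higher post-5-day and 3 post-10-day, beside the same 16.8% and 2.87% of all genes. The median change of these 9 markers was 0.09 post-5-day and 0.36 post-10-day. Their mean log2 ratio per mouse was 1.26 to 1.63 in Ctrl and 1.33 to 1.96 in AggE mice post-5-day, and 0.94 to 1.64 and 1.64 to 1.95 post-10-day. The part of these cells in the Lcn2 values was not tested.

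**Figure D2:**
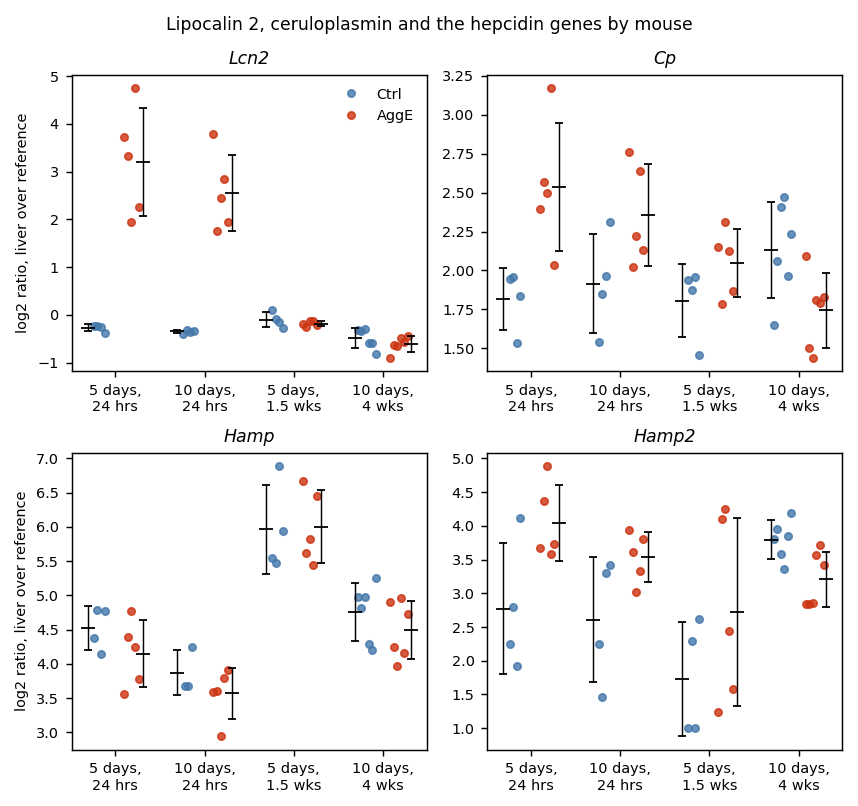
Log2 ratio of liver to reference for Lcn2, Cp, Hamp and Hamp2 in every mouse, by regimen and time, with Ctrl in blue, AggE in red and bars for the mean and SD of each group. The 10 exposed mice at 24 hrs stand between 1.76 and 4.75 for Lcn2, above all other mice, and the ratio of Hamp, though not its unnormalized Cy-5 signal, is highest in both groups at 1.5 wks.

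Over all 39 mice, the genes whose log2 ratio followed Lcn2 most closely, among 10225 genes that every array of some group measured well above background, were Saa3 (Pearson's r 0.96), Saa1 (0.89), Ifi27l2b (0.87), Apoa4 (0.86) and Orm3 (0.84). Saa1, Saa3 and Orm3 encode acute phase proteins. The rank correlations of these 5 genes with Lcn2 were lower (0.31 to 0.56), and in most mice outside the exposed groups at 24 hrs Lcn2 was at background. The 39 points share the normalization and the slides.

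Ceruloplasmin, the copper-carrying ferroxidase of plasma and itself an acute phase protein, rose less. At 24 hrs post-5-day its log2 ratios were 2.39, 2.57, 2.50, 3.17 and 2.04 in AggE mice and 1.94, 1.96, 1.53 and 1.84 in Ctrl mice. All AggE mice lay above all Ctrl mice, as they did for Lcn2, which makes 2 of the 10 genes without overlap (7.4% of all genes tested had none, in either direction). After 10 days Lcn2 was the 1 gene of 10 without overlap, against 1.86% of all genes. The log2 change of Cp was 0.72 (SE 0.19, 95% interval 0.33 to 1.1, adjusted p = 0.0296). This call was lost with the slide as a random block (0.57, adjusted p = 0.674), with no normalization between arrays (0.63, adjusted p = 0.307) and with only these 2 groups in the fit (adjusted p = 0.132), and without Ctrl mouse 1, 3 or 4 or AggE mouse 4 (change 0.56 to 0.84 over the mice left out). The part of the lower share of probes above background on the AggE arrays in this call, and in those of other genes at this point, was not tested.

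At 24 hrs post-10-day the Cp ratios were 2.76, 2.02, 2.22, 2.64 and 2.13 in AggE mice and 1.54, 1.85, 1.96 and 2.31 in Ctrl mice. The groups overlapped, and the log2 change of 0.44 (SE 0.19, unadjusted p = 0.0262, adjusted p = 1) did not pass. The change at 1.5 wks was 0.24 (SE 0.19, adjusted p = 1). At 4 wks Cp was on the other side, with a lowest, median and highest ratio of 1.44, 1.80 and 2.09 in AggE and 1.65, 2.15 and 2.47 in Ctrl mice, and a change of -0.39 (SE 0.16, unadjusted p = 0.0228, adjusted p = 0.167). On the slide that held both groups at 4 wks the difference was -0.13.

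Among the 10 exposed mice at 24 hrs, those with more Lcn2 also had more Cp. After each regimen's mean was taken off, the 2 genes correlated with r = 0.83 (permutation p = 0.00343, adjusted p = 0.0309 over the 9 other genes) and rho = 0.72 (permutation p = 0.0231, adjusted p = 0.121). The r was 0.76 within the 5 mice post-5-day and 0.95 within the 5 post-10-day, and 0.88 without the 2 mice farthest from the median of Lcn2. With single mice left out r ran from 0.71 to 0.94, and the adjusted p stayed at 0.05 or less only without mouse 1, 2 or 3 post-5-day. Leaving out any of the other 7 mice lost the call. In each regimen 1 of the mice lay on another slide than the rest, and the permutations did not allow for the slide. None of the other 8 genes passed after adjustment with all 10 mice, though ferroportin did with mouse 2 post-5-day left out. The nearest was ferroportin (r = 0.70, permutation p = 0.024, adjusted p = 0.108, and r = 0.41 without the 2 farthest mice; rho = 0.71, permutation p = 0.0268, adjusted p = 0.121). For Tfr2 r was 0.51 (permutation p = 0.129, adjusted p = 0.232; rho = 0.45, permutation p = 0.191, adjusted p = 0.344), 0.25 within the mice post-5-day and 0.91 within those post-10-day, and 0.91 without the 2 farthest mice. For Tfrc, at background post-5-day, it was 0.63 (permutation p = 0.0559, adjusted p = 0.168; rho = 0.55, permutation p = 0.105, adjusted p = 0.314) and 0.78 without those 2. Hepcidin gave r = -0.19 (permutation p = 0.601, adjusted p = 0.601; rho = -0.26, permutation p = 0.47, adjusted p = 0.529).

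Hamp, the hormone gene itself, did not pass in any comparison. Its log2 ratios at 24 hrs post-5-day were 3.56, 4.39, 4.77, 4.25 and 3.79 in AggE and 4.38, 4.79, 4.15 and 4.78 in Ctrl mice, a change of -0.37 (SE 0.29, 95% interval -0.97 to 0.22, adjusted p = 0.582). At 24 hrs post-10-day they were 3.59, 3.60, 2.95, 3.79 and 3.91 in AggE and 3.69, 3.68 and 4.25 in the 3 Ctrl mice with a value, a change of -0.30 (SE 0.32, -0.95 to 0.34, adjusted p = 1). The groups overlapped at both points. The change was 0.04 (SE 0.29, adjusted p = 1) at 1.5 wks and -0.26 (SE 0.25, adjusted p = 0.614) at 4 wks. Its sign post-5-day turned in 4 of 13 other settings, up to 0.50 with the processed signals of the scanner software, and none of those 4 was called.

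The Hamp spot was unusual in the reference channel. The reference RNA was the same on all arrays, yet its Cy-3 signal at this spot ran from 149 to 4942.5, a 33.2-fold range at percentile 98.9 of all genes (the median gene spanned 3.96-fold). Over the 39 arrays the log2 Cy-3 and Cy-5 intensities of the spot correlated with r = 0.92 (0.63 for the median gene). The arrays share slides and scan days, so they are no independent points. At 24 hrs post-5-day the Cy-5 signal was 190, 342, 558.5, 327 and 1462 in AggE mice and 2164, 2048, 2358 and 3229.5 in Ctrl mice, while the Cy-3 signal of the same spots was 151, 149, 310, 188 and 775.5 against 675.5, 687, 737.5 and 761.5. On Cy-5 alone Hamp fell by 1.74 on the log2 scale (SE 0.48, adjusted p = 0.0334) post-5-day, and the change post-10-day was -1.28 (SE 0.52, unadjusted p = 0.0191, adjusted p = 1). The ratio and the liver channel alone thus gave different calls for Hamp. Hamp2 and Trf had wide reference ranges as well, 14-fold and 14.9-fold. Why the reference signal varied was not tested.

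Across the groups the mean Hamp ratio, though not its liver signal, was highest at 1.5 wks, with a mean of 6.00 ± 0.53 (SD, n = 5) in AggE and 5.96 ± 0.65 (n = 4) in Ctrl mice. The group means then ran from 4.76 ± 0.42 (Ctrl at 4 wks, n = 6) down to 3.57 ± 0.37 (AggE at 24 hrs post-10-day, n = 5), in steps that were each within the larger SD of the neighbours. After the 5-day regimen, every mouse at 1.5 wks lay above every mouse at 24 hrs in the Ctrl groups and in the AggE groups, which was the case for 11% and 8.53% of all genes in the same direction. The slide that held both times had 3.79 in the AggE mouse at 24 hrs and 5.45 to 6.68 in 3 AggE mice at 1.5 wks. The unnormalized Cy-5 signal of Hamp did not follow this order. It was 429 to 2245 in Ctrl and 1033 to 12596 in AggE mice at 1.5 wks, against 2048 to 3229.5 and 190 to 1462 at 24 hrs post-5-day, and it reached its highest values at 4 wks (4317 to 24212 and 4235.5 to 30075). Times were otherwise on different slides, and this comparison is a description without a test.

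Over the 38 mice with a value, the genes whose ratio followed Hamp most closely were Cyp2d10 (r = 0.95), Rdh7 (0.93), 1300017J02Rik (0.93), Ahsg (0.93) and Ppp1r14b (0.91). Their rank correlations were 0.86 to 0.93. All 38 points share the normalization and the slides.

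Hamp2, the second hepcidin gene of the mouse, which does not lower plasma iron as Hamp does, did not pass in any comparison. The AggE mean exceeded the Ctrl mean after 24 hrs in both regimens and at 1.5 wks, and lay below it at 4 wks. At 24 hrs post-5-day its log2 ratios were 3.68, 4.37, 4.88, 3.58 and 3.72 in AggE and 2.26, 2.80, 1.92 and 4.12 in Ctrl mice. One Ctrl mouse at 4.12 lay among the exposed mice, and the other 3 lay below all of them. The log2 change was 1.27 (SE 0.50, 95% interval 0.27 to 2.28, unadjusted p = 0.0148, adjusted p = 0.158). With Lcn2 it made up the 2 of 10 genes past 2-fold with an unadjusted p of 0.05 or less, a rule that 0.3% of all genes met.

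The Hamp2 change was 0.93 (SE 0.50, adjusted p = 1) at 24 hrs post-10-day, where it turned sign in 2 of 13 other settings (-0.23 to 1.52), and 0.99 (SE 0.50, adjusted p = 1) at 1.5 wks. At 1.5 wks the AggE ratios of 1.24, 4.10, 4.26, 2.43 and 1.58 spread over 3 units, as wide as in any group. At 4 wks the change was -0.59 (SE 0.43, adjusted p = 0.466), so that the change at 24 hrs post-10-day exceeded it by 1.52 (SE 0.65, unadjusted p = 0.0266, adjusted p = 0.518). In that difference Lcn2 and Hamp2, 2 of 10 genes, passed 2-fold and the unadjusted limit, as 0.453% of all genes did. The change post-5-day was called on Cy-5 alone (1.40, adjusted p = 0.0335) and was 0.0066 with the deposited log ratios. Hamp and Hamp2 transcripts are close relatives, and how far each probe also binds the other was not tested.

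Transferrin, the plasma iron carrier made by hepatocytes, had log2 ratios at 24 hrs post-5-day of 7.97, 8.68, 8.57, 8.79 and 6.81 in AggE and 7.42, 7.72, 7.58 and 7.36 in Ctrl mice. In AggE mice 4 lay above all Ctrl mice and 1 below them all, and that 1 mouse was the only one of its group on another slide. The change was 0.65 (SE 0.39, 95% interval -0.15 to 1.44, adjusted p = 0.426), and was 0.04 (adjusted p = 1) post-10-day, 0.15 (adjusted p = 1) at 1.5 wks and -0.09 (adjusted p = 0.922) at 4 wks. The sign of the Trf change turned in 1 of 13 other settings post-5-day, in 6 of 13 post-10-day (-0.45 to 0.58), in 2 of 14 at 1.5 wks (-0.39 to 0.99) and in 5 of 15 at 4 wks (-1.67 to 0.92), where it was -1.67 on slide 9. On Cy-5 alone the change post-5-day was 1.30 and was called (adjusted p = 0.0363).

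The transferrin receptors differed in how well they could be read. Tfrc, the widely expressed uptake receptor, was well above background on 0 arrays of the 24 hr post-5-day groups and on 0 arrays at 1.5 wks, so no fold is given there. Its change was -0.16 (SE 0.11, adjusted p = 1) at 24 hrs post-10-day, where 3 of 4 Ctrl and 4 of 5 AggE arrays measured it, and 0.02 (SE 0.09, adjusted p = 0.951) at 4 wks. Over 39 mice the genes most like Tfrc were Ppp4r1 (r = 0.81), Cse1l (0.81), Hnrnpr (0.77), Calu (0.77) and Ank (0.77), an order that rests largely on background values, since Tfrc was not well above background on any array of the 5-day regimen. Tfr2, the hepatocyte receptor that reports transferrin saturation to hepcidin, was well above background on every array. Its change was -0.13 (SE 0.30, adjusted p = 0.902) and 0.15 (SE 0.30, adjusted p = 1) at 24 hrs post-5-day and post-10-day, and 0.13 (SE 0.30, adjusted p = 1) at 1.5 wks.

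**Figure D3:**
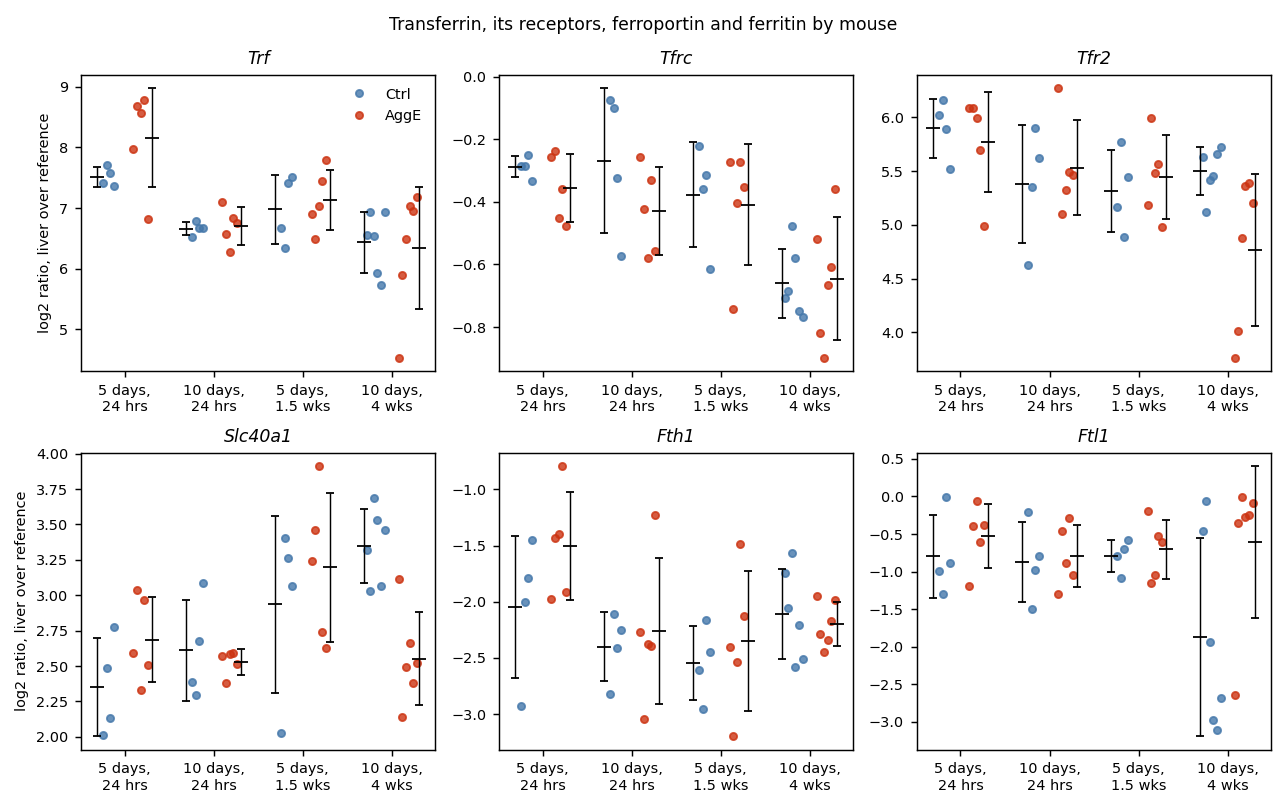
Log2 ratio of liver to reference for Trf, Tfrc, Tfr2, Slc40a1, Fth1 and Ftl1 in every mouse, by regimen and time, with Ctrl in blue, AggE in red and bars for the mean and SD of each group. Slc40a1 at 4 wks is the only panel and time with an adjusted p of 0.05 or less, with 5 of 6 AggE mice below all Ctrl mice.

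Ferroportin, the only known cellular iron exporter, was the member called at 4 wks, and it was lower in AggE livers. Its log2 ratios were 3.11, 2.14, 2.49, 2.67, 2.38 and 2.52 in AggE and 3.32, 3.03, 3.69, 3.53, 3.07 and 3.46 in Ctrl mice. Of the AggE mice 5 lay below all Ctrl mice, and the mouse at 3.11 lay among them. The log2 change was -0.80 (SE 0.21, 95% interval -1.22 to -0.38, adjusted p = 0.031), a 1.74-fold lower ratio. That mouse was also the only AggE mouse that shared a slide with Ctrl mice, and on this slide (slide 9 of the 11) the difference was -0.24. The call was lost with the slide as a fixed block (-0.24, adjusted p = 0.689) or random block (-0.66, adjusted p = 0.224), without that slide (-0.91, adjusted p = 0.079), and on Cy-5 alone (-0.41, adjusted p = 0.592). In all, 7 of 15 other settings kept it. It was also lost without AggE mouse 2, 3 or 5 or Ctrl mouse 3, 4 or 6 (change -0.91 to -0.72). At the earlier points the Slc40a1 change was 0.34 (SE 0.24, adjusted p = 0.53) at 24 hrs post-5-day, -0.08 (SE 0.24, adjusted p = 1) post-10-day and 0.26 (SE 0.24, adjusted p = 1) at 1.5 wks. The group means of Slc40a1 ran from 3.35 ± 0.26 (Ctrl at 4 wks, n = 6) to 2.35 ± 0.35 (Ctrl at 24 hrs post-5-day, n = 4), each step within the larger SD.

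At 4 wks Tfr2 was lower in AggE livers without passing. Its ratios were 3.76, 4.01, 4.88, 5.36, 5.39 and 5.20 in AggE and 5.63, 5.12, 5.42, 5.45, 5.66 and 5.72 in Ctrl mice, and 3 AggE mice lay below all Ctrl mice. The change was -0.73 (SE 0.26, unadjusted p = 0.00717, adjusted p = 0.0949). It was -1.85 on slide 9 and -0.42 without it, and -0.01 on Cy-5 alone.

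At 4 wks, beside the values of Slc40a1, Tfr2 and Cp, the changes of 7 of 7 hepatocyte markers were below 0, with a median of -0.34. Limma called 0 of them, and 1 passed the unadjusted limit (Apoa1, -0.61, adjusted p = 0.238), as 22.8% of all genes did. The mean log2 ratio of these 7 genes per mouse was 4.58 to 5.54 in AggE and 5.17 to 5.72 in Ctrl mice, and their summed normalized Cy-5 signal was 153200 to 181500 and 140500 to 189200. The 9 Kupffer cell and macrophage markers had a median change of 0.08 and a mean log2 ratio per mouse of 1.17 to 1.73 in AggE and 1.33 to 1.77 in Ctrl mice. Of them 0 were called and 2 were lower at the unadjusted limit (Cd5l, -1.12, adjusted p = 0.0593, and Clec4f, -0.81, adjusted p = 0.145). The part of either marker list in the values of the iron genes was not tested. These 3 markers were chosen after their values were seen.

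The ferritin light chain Ftl1 gave the largest difference of the 10 genes at 4 wks, and its values followed the slide. The AggE ratios were -2.65, -0.36, -0.01, -0.28, -0.25 and -0.09, and the Ctrl ratios -0.46, -0.07, -1.94, -2.98, -3.11 and -2.68. The 4 arrays of slide 9, which held 3 Ctrl mice and 1 AggE mouse, read -3.11 to -2.65, below the other 8 mice. The change over all mice was 1.27 (SE 0.42, unadjusted p = 0.00467, adjusted p = 0.0775), which makes Ftl1 the 1 of 10 genes past 2-fold and the unadjusted limit at 4 wks (0.3% of all genes were). Within slide 9 the difference was 0.28, and without it the change was 0.63 (adjusted p = 0.329). With AggE mouse 1, Ctrl mouse 1 or Ctrl mouse 2 left out it passed the limit (1.02 to 1.68 over the mice left out). At the other 3 points the Ftl1 change lay between 0.08 and 0.27, with adjusted p-values of 0.86 to 1.

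The ferritin heavy chain Fth1, which carries the ferroxidase site of ferritin, had a change of 0.54 (SE 0.31, 95% interval -0.08 to 1.16, adjusted p = 0.384) at 24 hrs post-5-day. It was 0.14 (adjusted p = 1) post-10-day, 0.19 (adjusted p = 1) at 1.5 wks and -0.08 (adjusted p = 0.904) at 4 wks. For Hamp2, Cp, Trf, Tfr2, Slc40a1, Fth1 and Ftl1, every step between neighbouring group means, ordered over the 8 groups, was within the larger SD of the neighbours.

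**Figure D4:**
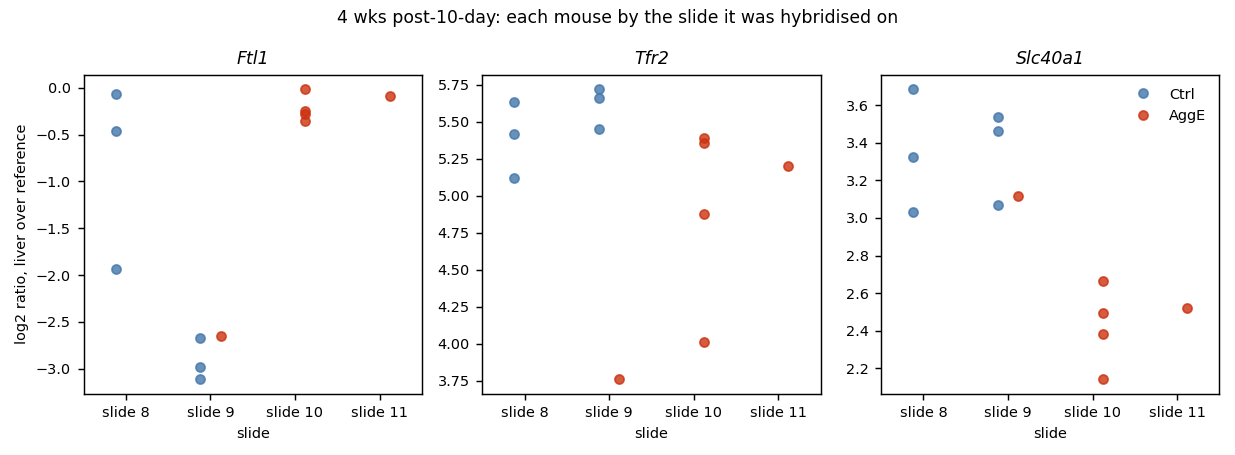
Log2 ratio of Ftl1, Tfr2 and Slc40a1 in the 12 mice at 4 wks, set out by the slide each array lay on, with Ctrl in blue and AggE in red. Slide 9 is the only slide with both groups; on it Ftl1 is low in all 4 mice, and the AggE mouse is low for Tfr2 and within the Ctrl range for Slc40a1.

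Among 6 lists of other genes of iron and heme handling, 3 genes were called at 24 hrs post-5-day, all lower, where 3.1% of all genes were called. Of 22 genes of hepcidin control on the array, 0 were called higher and 1 lower (Atoh8) post-5-day, and the counts were 0 and 0 for 13 iron transport genes, 0 and 1 (Fbxl5) for 8 iron sensing and storage genes and 0 and 1 (Blvrb) for 16 heme genes. None of 12 genes of iron-sulfur cluster assembly or of 3 genes tied to siderophores or lipocalin 2 was called. At an unadjusted p of 0.05 or less, which 16.8% of all genes had, 2 genes of hepcidin control were higher and 3 lower, 3 of iron transport higher and 1 lower, 2 of iron sensing and storage lower, and 1 lower in each of the heme, iron-sulfur and siderophore lists. Among all genes 1.62% were called higher and 1.49% lower there. The median log2 changes of these lists were -0.06, 0.05, 0.01, -0.12, -0.13 and -0.0012.

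Blvrb, a biliverdin reductase that acts on heme breakdown products, had a mean log2 ratio of 1.03 ± 0.14 (SD, n = 5) in AggE and 1.65 ± 0.18 (n = 4) in Ctrl mice, without overlap. Its change was -0.62 (SE 0.13, adjusted p = 0.00726), and -0.69 (adjusted p = 0.259) with the slide as a random block. At 24 hrs post-10-day it was -0.39 (adjusted p = 1), again without overlap. The other 2, the transcription factor Atoh8 (-0.54, adjusted p = 0.0108) and the iron sensor Fbxl5 (-0.48, adjusted p = 0.0118), were not well above background on all arrays of any group. Slc22a17, a proposed lipocalin 2 receptor, changed by 0.08 (adjusted p = 0.827) post-5-day and 0.26 (adjusted p = 1) post-10-day, and Bdh2, linked to the making of a mammalian siderophore, by -0.49 (adjusted p = 0.13) and -0.28 (adjusted p = 1). Atoh8, Fbxl5, Slc22a17 and Bdh2 were chosen after their values were seen.

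At 24 hrs post-10-day limma called 0 genes of these 6 lists, where 0.094% of all genes were called. At an unadjusted p of 0.05 or less, which 2.87% of all genes had, 1 gene of hepcidin control, 2 of iron transport and 1 of the siderophore list were higher, and 1 each of the sensing and storage, heme and iron-sulfur lists were lower. At 1.5 wks 0 genes of the 6 lists were called as well, as were 0% of all genes. The unadjusted limit was passed there by 2.49% of all genes and, in the lists, by 1 gene of hepcidin control, 1 of iron transport and 2 of the heme list, all higher, and by 1 of the iron-sulfur list, lower.

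At 4 wks 4 genes of these lists were called, against 1.35% of all genes higher and 2.83% lower. Smad1, which carries BMP signals to the hepcidin gene, was lower without overlap between groups (1.77% of all genes had none; -0.43, SE 0.12, adjusted p = 0.0372). Scara5, a ferritin receptor, was higher (0.38, SE 0.09, adjusted p = 0.0197), as was Nfu1 of iron-sulfur assembly (0.26, SE 0.07, adjusted p = 0.0403, without overlap). Hspb1, a small heat shock chaperone listed with iron sensing, was higher by 1.31 (SE 0.36, adjusted p = 0.0391), and its change at 24 hrs post-5-day was -1.17 (unadjusted p = 0.00882, adjusted p = 0.121). With single mice left out, the call of Hspb1 was lost without AggE mouse 2, 3, 5 or 6 or Ctrl mouse 3, 4, 5 or 6 (change 1.05 to 1.72). That of Nfu1 was lost without the same mice except AggE mouse 6 (0.23 to 0.29), that of Smad1 without AggE mouse 2 or 3 or Ctrl mouse 3, 4, 5 or 6 (-0.47 to -0.40), and that of Scara5 without AggE mouse 2 (0.32 to 0.44). The slide as a fixed block sets the 1 AggE mouse of slide 9 against its 3 Ctrl mice, and there Hspb1 turned to -0.24. Over the 15 other settings Smad1 changed by -0.56 to -0.35 and Scara5 by 0.14 to 1.12. Nfu1 changed by 0.18 to 0.94 and Hspb1 by -0.24 to 1.71. Smad1, Scara5, Nfu1 and Hspb1 were called in 7, 6, 7 and 6 of those 15 settings. Without slide 9 the adjusted p was 0.245, 0.383, 0.279 and 0.0754 in the same order.

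Red cell precursors also carry transferrin receptor and heme genes. Of 8 erythroid markers on the array, limma called 0 in any of the 4 comparisons. Unadjusted, 1, 2, 0 and 1 were higher, where 16.8%, 2.87%, 2.49% and 22.8% of all genes passed in either direction. Of the 8 markers, 5 or 6 (Klf1 among them) were well above background on no array of a 24 hr group. Their summed normalized Cy-5 signal was 8286 to 14040 in Ctrl and 12920 to 19120 in AggE livers 24 hrs after 5 days, 6691 to 8768 and 7092 to 19230 post-10-day, and 1937 to 6658 and 1864 to 12640 at 4 wks. Of 7 sinusoidal endothelial markers limma also called 0, and 2 were lower at the unadjusted limit, both at 4 wks, where 22.8% of all genes passed it. The part of these cells in the values of the iron genes was not tested.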

How the data were processed

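Liver RNA of 39 mice was hybridized with Cy-5 label, beside a common reference RNA with Cy-3, to 39 Agilent arrays on 11 slides, without dye swap. The authors deposited scanner intensities per spot, which the file headers credit to Feature Extraction 11.5.1.1, while the methods name another version. The authors also deposited log10 ratios of the same arrays as a matrix, equal to the log ratio of the scanner files and converted here to log2, as an alternative.

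Mean spot signals were not used here, so the median signal of each spot was taken. Intensities were background corrected (normexp, offset 50), loess normalized within arrays, with control and outlier spots given no weight, and quantile normalized between arrays with limma 3.58.1 in R 4.3.3 (statmod 1.5.0). Outlier spots (0.295% to 1.46% of an array) were left out, which removed 1 of the members' values (Hamp, Ctrl mouse 3 at 24 hrs post-10-day), and repeated spots of a probe were averaged. The methods kept probes with a RefSeq gene symbol; here those with a RefSeq accession were kept (25903 of 41174 non-control probes; 24375 were named, for 17016 genes, each by its probe of highest mean signal). One limma model with the 8 groups gave moderated tests with Benjamini-Hochberg adjustment over the probes tested. No 2 arrays were copies (highest correlation 0.9845). Correlations with Lcn2 used 100000 permutations. The script was tested on simulated data.

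The members and gene lists were chosen with earlier results of these data known. Named genes were the 10 members, the listed genes past the adjusted limit that some group measured well above background on all its arrays, and the 5 genes most like Lcn2, Hamp and Tfrc; all other names were chosen after their values were seen. Promoters came from RefSeq on GRCm38.p6, and those of Slc40a1 and Trf were not analysed here. Each array is 1 mouse, so p-values measure the spread between these mice and not that between slides. The main model took the arrays as independent, while arrays of 1 slide had a consensus correlation of 0.32. Alternatives changed the background correction, normalization, channel, probe filter, groups in the model, slide or scan day as a block, the replicate number as a block and each mouse in turn. Aquantile leaves log ratios unchanged, so it repeats the result of no normalization between arrays, and the counts of settings include both. Leaving out slide 9 was chosen after seeing the data.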

Additional observations from a re-analysis of the deposited data

Results flagged for a closer look

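Each of the 10 genes was tested in each of the 8 groups where it had 4 or more values. In 4 of these 79 sets of values, which reuse the same mice, 1 mouse lay far from its group by Dixon's criterion, where chance gives about 1 in 20. For Lcn2, Ctrl mouse 4 at 24 hrs post-5-day had a log2 ratio of -0.38, with the nearest at -0.25, both at background. For Cp, Ctrl mouse 4 at 1.5 wks had 1.46 (nearest 1.87), and was the only one of its group on its slide. For Tfrc, AggE mouse 2 at 1.5 wks had -0.74 (nearest -0.4), also alone of its group on its slide and not well above background. For Ftl1, AggE mouse 1 at 4 wks had -2.65 (nearest -0.36), and the 3 Ctrl mice on its slide read -3.11 to -2.68. The Lcn2 change differed between times by limma's test of the difference, by 3.55 (24 hrs minus 1.5 wks, post-5-day) and 3.02 (24 hrs minus 4 wks, post-10-day). Both of these calls were lost with the slide taken as a random block (adjusted p = 0.0986 and 0.337). For the 4 single mice the part of the slide was not tested.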

How the results depend on the processing

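At 24 hrs post-5-day the count of members called (2) became 1 with no normalization between arrays, with Aquantile, with only the 2 groups in the model and with a random slide block, and 5 on Cy-5 alone (Lcn2, Hamp, Hamp2, Cp and Trf). It was 1 to 2 with single mice left out. At 4 wks the count (1) became 0 with no background correction, processed signals, Cy-5 alone, the deposited log ratios, only the 2 groups, a random or a fixed slide block, and without slide 9; it was 2 (Cp and Slc40a1) with no normalization between arrays and with Aquantile, and 0 to 2 with single mice left out. The differences between times (1 member each) became 0 with no normalization between arrays (or with Aquantile, which gives the same log ratios) and with a random slide block. For 24 hrs minus 4 wks 2 members (Lcn2 and Hamp2) passed 2-fold with an unadjusted p of 0.05 or less.

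Of the other genes of iron and heme handling, the count at 24 hrs post-5-day (3) became 5 with no background correction, 6 with offset 16, 5 on Cy-5 alone, 0 with the slide as a random block, and 1 each with no normalization between arrays, Aquantile, the deposited log ratios and the filter on dim probes (2 to 5 with single mice left out). The count at 4 wks (4) became 8 with no normalization between arrays, with Aquantile and with the filter on dim probes, and 7 with the scan day as a block. The count became 2 with only the 2 groups (Smad1 and Bdh2) and 2 with the slide as a fixed block, which were other genes (Il6ra and Ncoa4, named after their values were seen), and 1 with no background correction, offset 16 and the deposited log ratios. It became 0 with processed signals, Cy-5 alone, the slide as a random block and without slide 9 (0 to 15 with single mice left out). The fixed slide block at 4 wks rests on 1 AggE mouse beside the 3 Ctrl mice of slide 9, and with it Hspb1 turned to -0.24. The correlation of Lcn2 with Tfr2 passed with offset 16 (r = 0.80, permutation, adjusted p = 0.0254), and that with Slc40a1 with offset 16 (0.75, permutation, adjusted p = 0.0363) and on Cy-5 alone (0.75, permutation, adjusted p = 0.048). Single mice left out gave r from 0.71 to 0.94 for Cp and from 0.57 to 0.85 for Slc40a1. The cause of these shifts was not tested.

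Correlations between mice with the same replicate number ran from -0.43 to 0.51, over 6 pairs at 4 wks and 4 in each other comparison. So few pairs cannot settle whether the numbers pair the mice. With the replicate number as a block the Lcn2 change was 3.55 and 2.98 at 24 hrs, the counts of members called were as before, and the other genes called post-5-day went from 3 to 5. Of 1023 single gene changes under other settings, 963 kept their side of the limit, many of them uncalled throughout. Of these 963, 106 turned sign while uncalled. Another 54, all called in the main fit, lost their call, and 5 uncalled there passed. The remaining called change (Hspb1, above) was reversed, with the slide as a fixed block. No setting moved the median of all genes by more than 0.0364. Each member had 1 RefSeq probe, so averaging over probes was not run. Dim spots limit Lcn2 in Ctrl livers and Tfrc after the 5-day regimen.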
